A study of Rattus norvegicus with 21 samples.

Results

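The genes examined here code for the channels that couple brain cells, and were taken as every probe annotated to 8 named genes: the connexins Gja1, Gjb2, Gjb6, Gjd2 and Gja4, the pannexins Panx1 and Panx2, and the junction scaffold Tjp1. All 8 were on the array with 1 probe each, of 21803 probes measured, and 7 of them were among the 8211 features tested. Areas of the dentate gyrus had been recorded in slices and sorted into those that generated fast ripples (FR), which are brief and very fast field oscillations of epileptic hippocampus, and those that did not (nonFR). The series set out to compare gene expression between both kinds of area, and electrical coupling through gap junctions has been proposed as a source of such oscillations. Total RNA was hybridised to Illumina rat beadchips, on which the brightness of a probe reports its transcript.

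Every array came from a Wistar rat injected with pilocarpine, which activates muscarinic receptors and sets off status epilepticus, to make it epileptic. No array was labelled as coming from an untreated rat, so both groups share the treatment and differ by their electrophysiology. The 10 FR areas came from 2 slices each of P91, B9, B3 and B10 and 1 slice each of B1 and B13. The 11 nonFR areas were cut from those slices and from 1 further slice of B9, so 10 slices of 6 animals gave both areas. The labels gave neither sex nor age, and named no chip.

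Connexins assemble into hexameric hemichannels, and hemichannels of neighbouring cells dock into gap junctions that pass ions and small molecules. In hippocampus, astrocytes are coupled mainly through connexin 43 (Gja1) and connexin 30 (Gjb6), interneurons through connexin 36 (Gjd2), and connexin 37 (Gja4) joins cells of the vessel wall. Pannexins form channels of a single membrane that release ATP, which acts on purinergic receptors, and zonula occludens 1 (Tjp1) is a scaffold that binds connexins and tight junction proteins at the membrane.

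The promoters of the astrocytic connexins and their partner Gjb2 are shown because Gjb2 and Gjb6 are next to each other among the protein-coding genes of chromosome 15, while, on the arrays, Gjb2 varied more closely with Gja1 than with Gjb6. The windows are from RefSeq (GRCr8) and hold 250 bases before and 50 after an annotated start: chr20:36302314-36302613 on the plus strand for Gja1, chr15:35381904-35382203 on the minus strand for Gjb2, and chr15:35410089-35410388 on the minus strand for Gjb6, the first of 2 entries for that gene. Capitals mark TTAAAAG on either strand and, in Gja1, TGANTCA, the motif of AP-1 factors; the 2 matches of TTAAAAG in Gja1 overlap.
Gja1: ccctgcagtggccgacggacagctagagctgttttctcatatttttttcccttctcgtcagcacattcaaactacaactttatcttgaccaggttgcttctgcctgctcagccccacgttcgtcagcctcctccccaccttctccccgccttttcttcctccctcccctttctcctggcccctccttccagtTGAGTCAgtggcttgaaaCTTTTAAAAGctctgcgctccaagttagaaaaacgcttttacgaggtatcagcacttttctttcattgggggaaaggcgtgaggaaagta
Gjb2: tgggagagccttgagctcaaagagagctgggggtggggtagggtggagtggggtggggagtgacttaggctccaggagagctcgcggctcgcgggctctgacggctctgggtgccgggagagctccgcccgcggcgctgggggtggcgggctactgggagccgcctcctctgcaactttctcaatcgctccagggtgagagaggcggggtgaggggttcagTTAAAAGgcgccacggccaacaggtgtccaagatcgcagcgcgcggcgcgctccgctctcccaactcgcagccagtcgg
Gjb6: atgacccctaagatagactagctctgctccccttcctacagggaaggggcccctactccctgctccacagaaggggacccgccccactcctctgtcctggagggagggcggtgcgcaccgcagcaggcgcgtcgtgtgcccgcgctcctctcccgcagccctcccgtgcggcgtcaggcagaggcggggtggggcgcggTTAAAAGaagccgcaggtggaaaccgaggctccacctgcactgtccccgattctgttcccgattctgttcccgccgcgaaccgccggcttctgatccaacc
Read with the gene, TTAAAAG began at -37 in Gja1, -29 in Gjb2 and -51 in Gjb6, counted so that 0 is the first transcribed base, and its overlapping match on the other strand of Gja1 began at -40. It was also in the windows of Gjd2 and Tjp1, so 5 of the 8 genes held it, against 5.3% of all 33469 promoter windows of the same length. TGANTCA was at -58 in Gja1 and in none of the other 7, against 7.33% of all windows. GGGCGG, the letters bound by Sp factors, was in 6 of the 8, against 33.1%. The letters searched were chosen after these windows had been read, so the counts are a description of them.

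Arrays differed in brightness, and 1 slice stood apart. Mean probe signal ran from 101 to 370 in FR and from 84.2 to 311 in nonFR areas, and 5648 to 9525 probes per array were detected, which here means a detection p below 0.01 against the array's negative controls. In slice S2 of animal B10 the areas differed by more than 1 log2 unit in 1896 features (23.1%), against 0.378% to 13.4% in the other 9 slices. Both arrays of this slice were the dimmest of their group, at 101 and 84.2. Its nonFR array also had the fewest detected probes of all arrays (5648). The differences of Gja1 and Tjp1, the relations that moved most and the interaction tests are given with and without the FR array of this slice. The brightest markers of the tissue were present in both groups: the neuronal Eno2 had a log2 level of 12.15 ± 0.65 in FR and 12.25 ± 0.23 in nonFR areas, and the synaptic vesicle protein Syt1 11.34 ± 0.74 and 11.35 ± 0.66 (SD, n = 10 and 11). Of 10 tested granule cell and neuron markers, Prox1 (5.95 in FR and 6.01 in nonFR) and Rbfox3 (5.99 and 5.96) were the dimmest. Tdo2 and Rasgrp1 were detected on no array. In the fit described below, 9 of the 10 were lower in FR (median difference -0.12, range -0.65 to 0.028), against 3915 of 8211 features. Higher in FR were 9 of 9 tested oligodendrocyte markers (median 0.34), 8 of 9 of microglia (0.17) and 8 of 9 mural and meningeal markers (0.20). So were 6 of 7 endothelial (0.052), 8 of 11 interneuron (0.056) and 8 of 13 astrocyte markers (0.081), against 4296 of 8211 features. In all of these lists 0 passed the threshold. The astrocytic Sparcl1 was at 12.99 ± 0.51 and 12.99 ± 0.26, and Ndrg2 at 12.49 ± 0.59 and 12.59 ± 0.27.

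None of the 7 tested genes differed between FR and nonFR areas past the threshold. The limma fit used every array (21) and took the animal as a block, and p-values were adjusted by Benjamini-Hochberg over 8211 features. At an adjusted p below 0.05 it called 0 of 8211 features (0%), so the 0 of 7 here equals the background, and the smallest adjusted p was 0.9999. At an unadjusted p below 0.05 limma called 29 features (0.353%), 13 higher and 16 lower in FR, and none of the 7. The exact sign-flip test over the 6 animal means, whose smallest possible two-sided p is 0.0313, called 117 features unadjusted (1.42%), 0 after adjustment, and none of the 7, although 1, Gjb6, had an unadjusted p below 0.05 without B10 slice S2. The values of FR and nonFR areas overlapped in 7 of 7 genes. No feature of the 8211 had groups that did not overlap (0%).

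**Figure D1:**
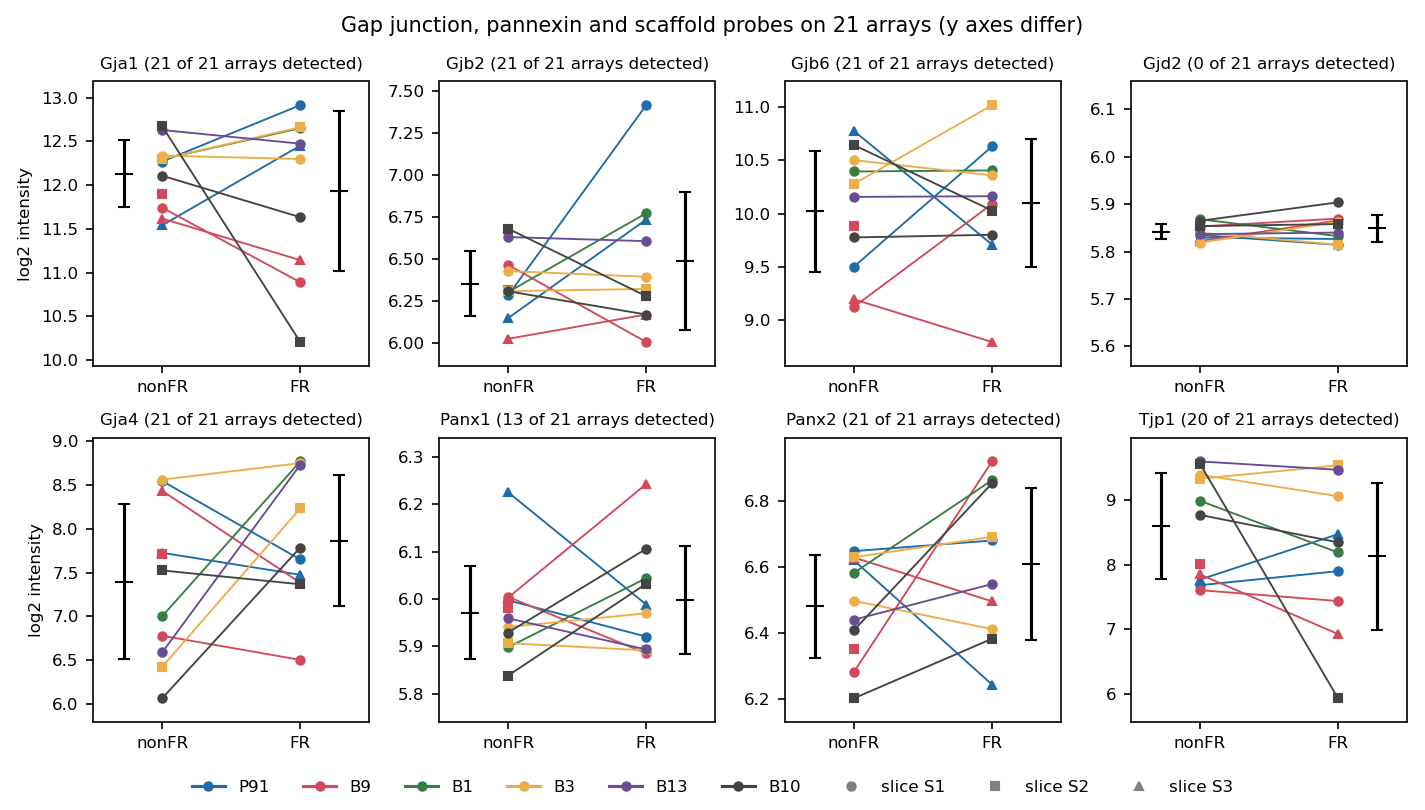
Log2 intensity (y axes, which differ in range) of the 8 genes in nonFR and FR areas. Points are arrays, coloured by animal and shaped by slice number, lines join both areas of a slice, and black bars give the group mean and SD. FR and nonFR values overlap for every gene, and the FR area of B10 slice S2 is the lowest for Gja1 (10.21) and Tjp1 (5.93).

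Gja1, the main connexin of astrocytes, had overlapping levels in FR and nonFR areas, with the lowest and the highest value both among FR areas. Its log2 level was 10.21 at the lowest, 12.37 at the median and 12.91 at the highest of 10 FR areas, and 11.54, 12.27 and 12.67 among 11 nonFR areas. The low end was held by the FR area of B10 slice S2 and by the FR areas of B9, and the high end by an FR area of P91. The highest nonFR value, 12.67, was that of B10 slice S2. The means were 11.93 ± 0.91 in FR and 12.13 ± 0.38 in nonFR (SD), and the fitted FR minus nonFR difference was -0.25 (SE 0.25, 95% interval -0.78 to 0.27; limma p = 0.322, adjusted p = 0.9999).

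The direction for Gja1 was split over the animals. The mean difference per animal was 0.78 in P91, 0.35 in B1 and 0.16 in B3, and -0.16 in B13, -0.66 in B9 and -1.47 in B10 (exact sign-flip p = 0.688, and 1 without B10 slice S2). Within slices it ran from -2.47 in B10 slice S2 to 0.91 in P91 slice S3. Without the FR array of B10 slice S2 the fitted difference was -0.073, and without animal B10 it was 0.036. Of the 13 tested astrocyte markers, 6 were lower and 7 higher in the FR than in the nonFR area of that slice: Ndrg2, a cytoplasmic astrocyte protein, was at 11.39 against 12.53 and Sparcl1, a secreted matrix protein, at 13.005 against 12.66. Their mean log2 level was 9.76 and 9.58. By animal, the mean difference of the markers was 0.55 in P91, 0.35 in B1, 0.53 in B13, 0.10 for B3, -0.29 for B9 and -0.23 for B10, with the sign of Gja1 in 5 of 6 animals, B13 being the exception. The match was not particular to astrocytes. Mean differences of the oligodendrocyte markers and of the mural and meningeal markers had the same sign as those of the astrocyte markers in every animal. Over all arrays the mean level of the astrocyte markers ran from 9.25 to 10.99 in FR and from 9.56 to 10.49 in nonFR areas. The probe of the astrocytic potassium channel Kcnj10 was detected on no array, and the part of astrocyte content in the spread of Gja1 was not tested. In pieces of tissue such as these, fewer cells of a type and less RNA per cell cannot be told apart.

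Gjb6, the other astrocytic connexin, had almost the same level in both kinds of area. In FR areas the lowest log2 level was 8.79, the median 10.13 and the highest 11.02, and in nonFR areas they were 9.12, 10.16 and 10.78. The lowest FR value and the lowest nonFR value were both from B9. The fitted difference was 0.017 (SE 0.20, 95% interval -0.41 to 0.45; limma p = 0.933, adjusted p = 0.9999). The animal mean was higher in FR in 5 of 6 animals, but by 0.0064 in B13, 0.010 in B1 and 0.031 in P91, with 0.28 in B9, 0.30 in B3 and -0.30 in B10 (exact sign-flip p = 0.375). Without B10 slice S2 it was above 0 in 6 of 6 animals, by 0.025 in B10, and the exact sign-flip p was 0.0313, the smallest possible (adjusted p = 1). That p was reached by 81 features (0.986%), 0 of them past the threshold after adjustment (0%), and the limma difference without that array was 0.023. The same sign in at least 5 of 6 animals was found in 1296 features (15.8%), and in 2 of the 7 genes, Gjb6 and Tjp1. Both slices of P91 differed widely and in opposite directions, by 1.13 in S1 and -1.07 in S3, so its small animal mean is an average of unlike slices.

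Gjb2 codes for connexin 26, found in leptomeninges and reported in astrocytes. Its log2 level was 6.01 to 7.41 in FR areas (median 6.36) and 6.02 to 6.68 in nonFR areas (median 6.31). The FR area of P91 slice S1 was the highest of all arrays, at 7.41, and those of P91 slice S3 and of B1 slice S1 followed at 6.73 and 6.77. The fitted difference was 0.11 (SE 0.13, 95% interval -0.17 to 0.39; limma p = 0.404, adjusted p = 0.9999), and the animal means gave an exact sign-flip p of 0.5. FR was higher in 2 of 6 animals, P91 by 0.86 and B1 by 0.47, and the other 4 lay between -0.27 and -0.010. Without P91 the difference was -0.065.

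The mural and meningeal markers, 9 of them tested, had a mean log2 level of 6.80 to 8.28 in FR and 6.72 to 7.56 in nonFR areas, with Rgs5 and Col1a1 detected on no array. Of these Ptgds, a prostaglandin synthase of leptomeninges, differed by 0.39 (SE 0.43) and Igf2, a growth factor secreted there, by 0.63 (SE 0.42), neither past the threshold (limma adjusted p = 0.9999). Their mean difference was 1.38 in B1 and 0.24 in P91, the animals in which Gjb2 was higher in FR, and 0.70 in B13, in which Gjb2 differed by -0.024. The part of meningeal tissue in the Gjb2 values was not tested.

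Gja4, the connexin of the vessel wall, had the largest SD of the FR minus nonFR difference over 10 slices among the tested connexins (1.23, against 0.96 for Gja1), without passing the test. Its log2 level ran from 6.50 to 8.77 in FR areas (median 7.72) and from 6.07 to 8.56 in nonFR areas (median 7.52), and the means were 7.86 ± 0.75 and 7.40 ± 0.89 (SD, n = 10 and 11). In 4 slices FR exceeded nonFR by a wide margin: by 2.14 in B13 slice S1, 1.81 in B3 slice S2, 1.77 in B1 slice S1 and 1.72 in B10 slice S1. In the other 6 the difference lay between -1.05 and 0.19. The animals divided accordingly, with 2.14 in B13, 1.77 in B1, 0.998 for B3 and 0.78 for B10, and -0.57 for P91 and -0.66 for B9. The fitted difference was 0.45 (SE 0.37, 95% interval -0.34 to 1.24, limma p = 0.248, adjusted p = 0.9999). The mean over the 6 animals was 0.74 (SD 1.16, exact sign-flip p = 0.188).

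Endothelial markers were not all measured: Cdh5 and Tek, both defining for endothelium, were detected on no array, and 7 markers were tested. Their mean log2 level spanned 6.33 to 7.82 in FR and 6.42 to 7.69 in nonFR areas. Cldn5, the claudin of the blood-brain barrier, differed by 0.079 (SE 0.45) and Itm2a, a membrane protein of endothelial cells, by -0.0063 (SE 0.41). The mean difference of the 7 was largest in B13 (0.48), followed by B1 (0.24), P91 (0.19), B3 (0.18) and B10 (0.011), and was below 0 in B9 (-0.28). In P91 it was above 0 while Gja4 was at -0.57, and the part of vessel content in the Gja4 values was not tested.

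Gjd2, the connexin of neuronal electrical synapses, was detected on no array. Its detection p lay between 0.114 and 0.941 over the 21 arrays, and its log2 level between 5.81 and 5.90, so it was not well above background in either group and no difference is given. Interneurons use this connexin, and their content in these areas was not tested. Of the markers listed for them, Gad1, the GABA-synthesising enzyme, had a log2 level of 10.95 ± 0.76 in FR and 10.98 ± 0.97 in nonFR areas (SD). Reln, a secreted glycoprotein, was at 8.90 ± 1.29 and 8.77 ± 0.88. These were the 2 brightest of 11 tested interneuron markers. The dimmest were Lhx6 (6.03 in FR and 6.04 in nonFR), Calb2 (6.01 and 5.99) and Erbb4 (5.96 and 5.95), not far above the level of Gjd2. The detection p of Gjd2 does not show that its transcript was absent.

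Panx1, the ATP-releasing pannexin found in many cell types, was close to background. Its probe was detected on 13 of 21 arrays, 7 of FR and 6 of nonFR areas, with log2 levels of 5.89 to 6.24 in FR (median 5.98) and 5.84 to 6.23 in nonFR (median 5.96). Both highest values were single arrays, the FR area of B9 slice S3 and the nonFR area of P91 slice S3. The fitted difference was 0.030 (SE 0.052, 95% interval -0.081 to 0.14; limma p = 0.573, adjusted p = 0.9999; exact sign-flip p = 0.63 over 6 animals), and the added offset compresses differences at this brightness.

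Panx2, the pannexin enriched in neurons, was detected on 21 of 21 arrays. Its log2 level ran from 6.24 to 6.92 in FR areas (median 6.61) and from 6.20 to 6.65 in nonFR areas (median 6.50). The 3 highest values were FR areas, at 6.92 in B9 slice S1, 6.86 in B1 slice S1 and 6.85 in B10 slice S1. FR was higher in 7 of 10 slices and in 4 of 6 animals, and the fitted difference was 0.13 (SE 0.091, 95% interval -0.065 to 0.32; limma p = 0.178, adjusted p = 0.9999; exact sign-flip p = 0.188 over 6 animals). B10 at 0.31, B1 at 0.28, B9 at 0.25 and B13 at 0.11 lay above 0, and B3 at -0.012 and P91 at -0.17 below.

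Tjp1, the scaffold, had the lowest unadjusted limma p of the 7 genes and the largest difference in size in the fit of all 21 arrays. The mean over the 6 animals was larger in size for Gja4 (0.74) than for Tjp1 (-0.52). So was the fitted difference without the FR array of B10 slice S2 (0.45 against -0.28). The log2 level of Tjp1 was 5.93 at the lowest, 8.27 at the median and 9.54 at the highest of the FR areas, and 7.61, 8.77 and 9.60 among nonFR areas. The FR area of B10 slice S2, at 5.93, was the one array on which the probe was not detected, while the nonFR area of the same slice was at 9.57. The fitted difference was -0.55 (SE 0.30, 95% interval -1.20 to 0.094; limma p = 0.0890, adjusted p = 0.9999). It was below 0 in 5 of 6 animals, at -2.03 in B10, -0.80 in B1, -0.55 in B9, -0.13 in B13 and -0.063 in B3, and 0.46 in P91 (exact sign-flip p = 0.156, and 0.188 without B10 slice S2). Without the FR array of B10 slice S2 it was -0.28, and without animal B10 -0.20.

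**Figure D2:**
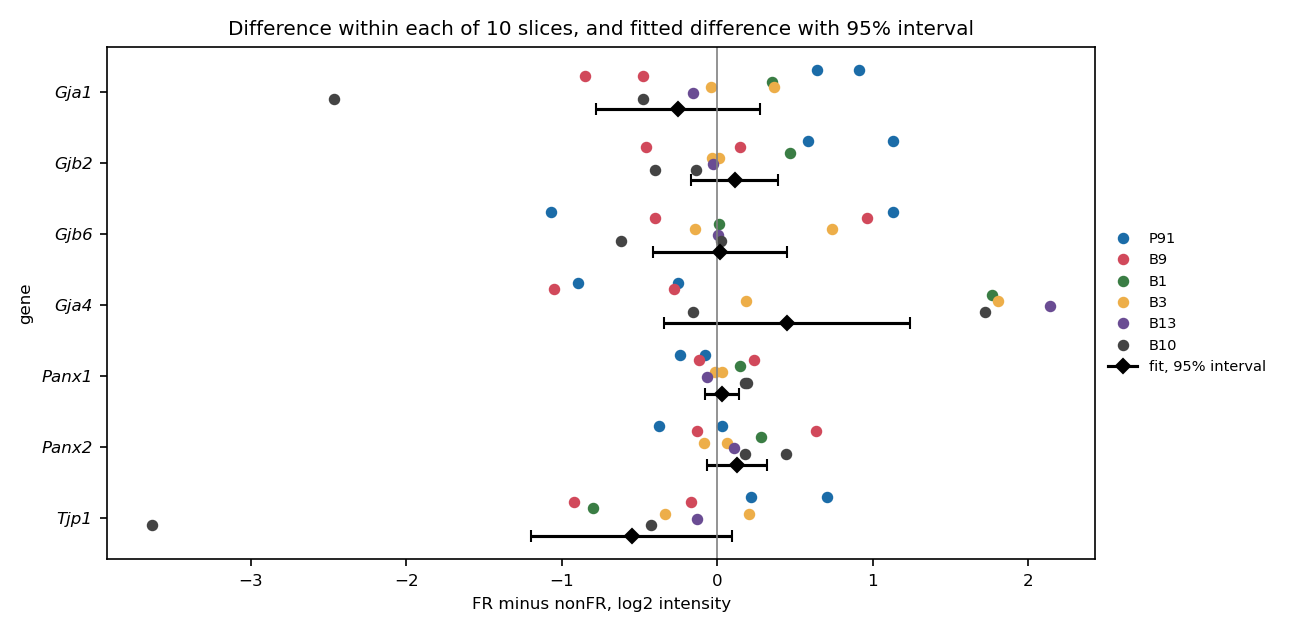
FR minus nonFR difference in log2 intensity (x axis) for the 7 tested genes (y axis). Coloured points are the 10 slices by animal. Black diamonds with bars are the fitted differences with 95% intervals, which count slices of an animal as separate. Every interval includes 0, and B10 slice S2 lies farthest from the rest for Tjp1 (-3.63) and Gja1 (-2.47).

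Whether the difference itself varied between animals was tested with an animal-by-area interaction, a model added after the values had been seen. The model held no slice term and took the arrays as independent. B1 and B13 gave a single slice each, so for them an animal's difference cannot be told apart from a slice's. In limma the interaction gave an unadjusted p of 0.0330 for Gja1 and 0.0318 for Gjb2, and 0.168 or more for the other 5. At an unadjusted p below 0.05 it called 386 features (4.7%) and after adjustment 2 (0.0244%), Sstr1 and RT1-Db1, and no gene of the 7 was past the threshold (adjusted p = 0.9999). Without the FR array of B10 slice S2, limma gave 0.0232 for Gja1 and 0.0482 for Gjb2 and 0.116 or more for the other 5. It then called 531 features unadjusted (6.47%) and 5 after adjustment (0.0609%), none of the 7 among the latter. Sstr1 (a somatostatin receptor) and RT1-Db1 (an MHC class II chain) are outside the naming rule and were named after their values were seen.

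Genes differed in how much of their variance lay between animals. The share of variance over 21 arrays that lay between animals was 54.5% for Tjp1, 50.1% for Gjb6, 43.2% for Gja1, 29.6% for Gjb2, 17.2% for Panx1, 14.2% for Gja4 and 12.1% for Panx2. Over all features its median was 41.5% and its quartiles 28.3% and 54.5%, so Gja4 and both pannexins lay below the lower quartile. Values unrelated to the animal also give a share above 0, at a level that was not computed. Low shares such as these therefore do not show that animals differed. Tjp1 was highest in B13 and B3, with mean log2 levels of 9.54 ± 0.092 (SD, n = 2) and 9.33 ± 0.20 (n = 4), and lowest in B9 at 7.57 ± 0.42 (n = 5) and P91 at 7.96 ± 0.36 (n = 4). The arrays of B13 and B3 did not overlap with those of B9 and P91 for this gene. These animals were picked by their levels of Tjp1, so this is a description only. The share of features with such a split was not counted. Gja1 and Gjb6 were both lowest in B9, at 11.46 ± 0.43 and 9.42 ± 0.55.

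After each animal's mean was subtracted, the astrocytic Gja1 varied over the 21 arrays with its scaffold Tjp1 at a Pearson r of 0.82 and with Gjb2 at 0.59. These are descriptions, since the arrays share animals and slices. The first rested in part on B10 slice S2, and was 0.56 over 20 arrays without its FR area and 0.43 over 19 without the slice. The second was 0.78 over the 20 arrays and 0.53 over 17 without P91. The neighbours Gjb2 and Gjb6 had an r of 0.19, and the astrocytic pair Gja1 and Gjb6 0.089. Panx1, which was close to background and detected on 13 of 21 arrays, was negatively related to Gja1 at -0.48 and to Tjp1 at -0.46. Without the FR array of B10 slice S2 these were -0.55 and -0.66. Panx2 and Tjp1 had an r of -0.20, and -0.58 without that array.

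**Figure D3:**
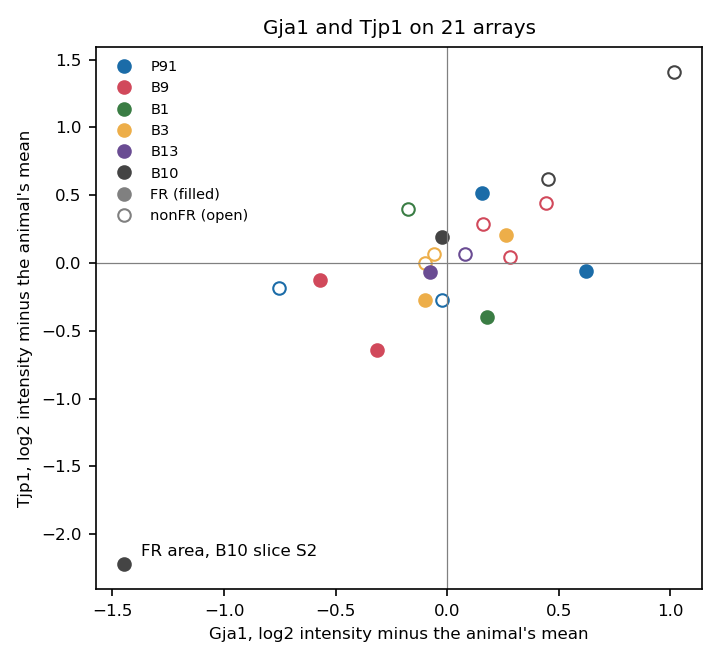
Log2 intensity of Gja1 (x axis) and Tjp1 (y axis) on 21 arrays after each animal's mean was subtracted. Filled points are FR and open points nonFR areas, coloured by animal. The FR area of B10 slice S2 lies far below the other 20 arrays on both axes, and without it the correlation is 0.56 in place of 0.82.

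The genes whose pattern over the 21 arrays was most like each gene were ranked by the same measure, with 3 named for each. For Gja1 they were Sorbs2 (r = 0.92), an actin-associated adaptor, Ivns1abp (0.91) and Serp1 (0.91), and without the FR array of B10 slice S2 these were 0.85, 0.81 and 0.81. For Tjp1 they were Ppp1cb (0.92), a catalytic subunit of protein phosphatase 1, Cnih1 (0.91) and Stard7 (0.91), which became 0.68, 0.64 and 0.70 without that array. For Gjb2 they were Vip (0.90), a neuropeptide of interneurons, Cp (0.89), the copper-carrying ferroxidase ceruloplasmin, and Frmd8 (0.89). For Gjb6 they were Swap70 (0.85), Crnkl1 (0.85) and Acaa2 (0.84), a mitochondrial thiolase. For Gja4 they were Upp1 (0.81), a uridine phosphorylase, Vtn (0.80), the matrix protein vitronectin, and Serping1 (0.80), the inhibitor of complement C1. For Panx1, which was close to background, they were Ift22 (0.85), Lin37 (0.84) and Dtnb (0.84), and for Panx2 Git1, Use1 and Faap20 (0.77 each).

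The other connexins and pannexins were hardly measurable. Of 16 genes 7 were on the array, and Gja5, the connexin 40 of arterial endothelium, was the 1 tested, with a fitted difference of -0.0032 (SE 0.026; limma p = 0.902). Gja3, Gja6, Gja10 and Gjd3 were detected on no array, Gjb1, the oligodendrocyte connexin 32, on 3 and Panx3 on 1. The 2 brightest of 9 tested oligodendrocyte markers were well above it: Olig1, a transcription factor of that lineage, had a log2 level of 10.35 ± 0.79 in FR and 9.97 ± 1.06 in nonFR areas (SD), and Cnp, a myelin enzyme, 10.14 ± 0.94 and 9.80 ± 1.06. The dimmest was Mbp, at 6.05 in FR and 6.05 in nonFR areas, and Olig2 was detected on no array.

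Junction scaffolds and connexin partners counted 14 of 18 genes on the array and 9 tested, of which 0 passed the threshold and 0 had an unadjusted limma p below 0.05, as in the lists of 11 and 14 tested genes that follow. Fitted differences were above 0 in 5 and below 0 in 4, with a median of 0.0040, whose sign differed in 9 of 19 alternatives (-0.090 to 0.029). Prkca, a protein kinase C that phosphorylates connexin 43, differed by 0.11 (SE 0.14; limma p = 0.444) and was above 0 in 6 of 6 animals, from 0.047 to 0.29, a pattern found in 117 features of either sign (1.42%). Tuba1a, an alpha tubulin, differed by -0.089 (SE 0.12), Ywhaq, a 14-3-3 protein, by -0.18 (SE 0.30), and Src, a kinase that phosphorylates connexin 43, by 0.042 (SE 0.11).

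Tight and adherens junction genes counted 24 of 27 on the array and 11 tested, with 0 past the threshold, 7 above and 4 below 0, and a median of 0.042, which was -0.027 without P91 and -0.071 without B13. Nectin3, an adhesion molecule of adherens junctions, differed by -0.17 (SE 0.12; limma p = 0.163), and Ctnna2, the neuronal alpha catenin, by -0.30 (SE 0.26; limma p = 0.271). Pard3, a polarity scaffold, differed by 0.20 (SE 0.21) and F11r, the junctional adhesion molecule A, by 0.17 (SE 0.18). Cldn5, named above, is in this list and among the endothelial markers.

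Purinergic partners of pannexin channels counted 25 of 26 on the array and 14 tested, again with 0 past the threshold. Of these 12 were above and 2 below 0, with a median of 0.059, against 4296 above and 3915 below and a median of 0.0037 over all 8211 features. The median per animal was 0.42 in B13, 0.038 in B3 and 0.036 in P91, and below 0 in B9, B1 and B10. Without B13 the list's median was 0.016, and with no detection filter 0.0051. Nt5e, which makes adenosine from AMP, differed by 0.11 (SE 0.076; limma p = 0.160), and the adenosine receptors Adora2b and Adora2a by 0.079 (SE 0.055) and 0.15 (SE 0.12). P2ry12, an ADP receptor that is also in the microglia list, differed by 0.058 (SE 0.054). Microglia markers on these arrays had mean log2 levels of 6.40 to 8.54 in FR and 6.45 to 8.19 in nonFR areas over 9 tested genes, with Ptprc detected on no array, and C1qb and C1qa, subunits of complement C1q, differed by 0.17 (SE 0.41) and 0.21 (SE 0.26). Their part in the purinergic values was not tested. P2rx7, the ATP receptor often paired with Panx1, was detected on 3 arrays and was not tested.

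**Figure D4:**
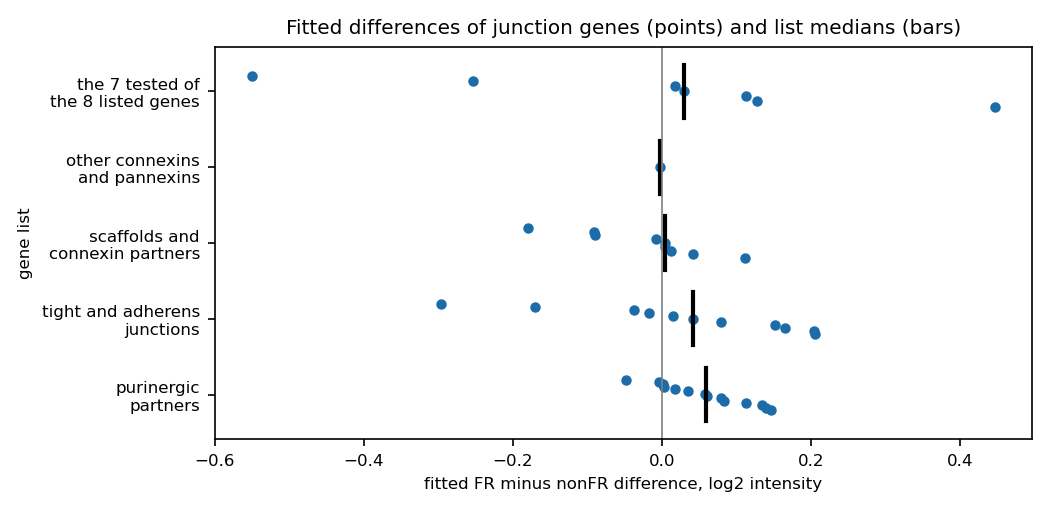
Fitted FR minus nonFR difference in log2 intensity (x axis) of the tested genes of 5 lists (y axis). Points are genes and bars the list medians. The 7 tested genes span -0.55 (Tjp1) to 0.45 (Gja4) around a median of 0.030, and the medians of the other 4 lists lie between -0.0032 and 0.059.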

How the data were processed

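Total RNA of 21 areas was measured on Illumina beadchips. Per the file headers, the deposited table gave a signal, read here as linear intensity with no normalization, and a detection p-value for each probe and array. The deposited processed values lie on a log2-like scale (medians 6.73 to 6.76), of unknown log base and background step. They kept each array's ranks of the signal, and served as an alternative. The submitters' processing notes name lumi 2.2.

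Signals were corrected and quantile-normalized with neqc (limma 3.58.1, R 4.3.3, offset 16), which understates differences of dim probes. Of 22523 probes, 720 were 0 throughout. Kept were probes detected (p below 0.01) on 10 arrays or more, and the brightest probe per symbol, giving 8211 features. The fit used lmFit and eBayes, two-sided, with the animal as a block. Arrays give no counts, so their number limits the precision. Pairing comes from the labels' animal and slice. Deviations from group means correlated at 0.36 on average within slices (-0.014 to 0.64, 10 pairs). The average was 0.35 between different slices of an animal (-0.23 to 0.69, 20 pairs) and -0.11 between animals (-0.71 to 0.83, 180 pairs). The averages thus set animals apart, but not slices within an animal, and the ranges overlap widely.

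Alternatives covered background, normalization, filter, block, array weights and samples left out. Code was tested on simulated data. The genes and lists were chosen with earlier results of these data known. Genes were named by rule: all 8, the 4 lowest p-values of each other junction list, the 3 genes most like each, and the 2 brightest of each marker list. Markers detected on no array, and the dimmest of the neuron, interneuron and oligodendrocyte lists, were named besides as limits. Symbols come from the platform annotation, and the promoter windows from RefSeq, GRCr8, for naming and sequence only. Positions of the probes in the transcripts were not used here.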

Additional observations from a re-analysis of the deposited data

How the results depend on the processing

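No gene of the 7 and no feature of all passed the limma threshold for FR against nonFR under any of the 19 alternatives, where the lowest adjusted p was 0.999. With the slice as replicate block over 10 paired slices the count was 0, as without any block, and every difference kept its sign (Tjp1 -0.53, Gja4 0.50, Gja1 -0.22). Differences changed sign in 4 cases, each with 1 animal left out: Gja1 was 0.036 and Panx1 -0.0069 without B10, Gjb2 was -0.065 without P91, and Gjb6 was -0.049 without B3. Over the animals left out in turn, Gja1 ran from -0.50 to 0.036, Gjb2 from -0.065 to 0.20, Gjb6 from -0.049 to 0.092 and Panx1 from -0.0069 to 0.075. Gja4 ran from 0.27 to 0.79, Panx2 from 0.080 to 0.20, and Tjp1 from -0.79 without P91 to -0.20 without B10, all of 1 sign. Array weights gave Tjp1 -0.26 and Gja1 -0.11, and the authors' processed values -0.41 and -0.26. The alternatives without the FR array of B10 slice S2 were added after seeing the data. The cause of these shifts was not tested. Panx1 and Tjp1 could not be fitted where detection on all 21 arrays was required, since their probes were not. Without B10 slice S2 the exact sign-flip test gave an unadjusted p below 0.05 for 1 of the 7 genes, Gjb6 (0.0313), in place of 0, and the interaction test called 5 features in place of 2. List medians changed sign in 9 of 19 alternatives for scaffolds, 3 of 19 for tight and adherens junctions and 1 of 18 for other connexins, and in none for the 7 genes (0.014 to 0.11) or purinergic partners (0.0051 to 0.12). The limma intervals of all 7 genes, such as that of Gja4 (-0.34 to 1.24), come from 21 arrays and count slices of an animal as separate. Over the 6 animals the mean difference of Gja4 was 0.74 with an SD of 1.16, so large differences are left unresolved. For Tjp1 the mean was -0.52 (SD 0.86) and for Gja1 -0.17 (SD 0.80). Near background the offset compresses differences of Panx1, while Gjd2 was not detected.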
